A study of Mus musculus with 6 samples.

Results

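Chemokine ligands, the small secreted proteins that direct the migration of leukocytes, were examined in haematopoietic stem cells sorted by surface CCR2. Their genes were taken by symbol: every gene whose symbol in the array's probe annotation begins with Ccl, Cxcl, Cx3cl or Xcl and goes on with a number and at most 1 letter. This gave 34 of the 22180 genes that had a probe set of their own. The tested cells were 3 pools of CCR2-positive stem cells, and they were set against 3 pools of CCR2-negative stem cells. All pools came from C57BL/6J mice for which the labels name no treatment, each pool from the marrow of 20 animals, and the submitters call the pools of a group biological replicates. The sources used here do not give the age or sex of the mice, how stem cells were gated, or whether pools of the 2 groups shared animals. A pool averages its animals and all the cells in its gate, and a lower signal from fewer cells of a kind cannot be told apart from less RNA per cell.

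Chemokines are sorted into the CC, CXC, CX3C and C classes by the spacing of their first cysteines, and they signal through G protein-coupled receptors on the cells that they attract. CCR2 is the receptor of CCL2 and related CC ligands and is known for moving monocytes out of the marrow, while CXCL12 from marrow stromal cells holds stem cells in place through CXCR4. Stem cells are mostly known as cells that respond to chemokines, whereas many of the inflammatory ligands are made in quantity by mature myeloid cells.

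Values are RMA signals on the log2 scale as deposited, a difference is the CCR2-positive mean minus the CCR2-negative mean, given with its standard error, and all tests come from 1 limma fit over all 22180 genes. Adjusted p-values are Benjamini-Hochberg values over those genes. Signals of different genes were read by different probes, so their order is not an order of transcript abundance. Array medians were 5.48 to 5.58, and arrays correlated at r = 0.966 to 0.974 within the CCR2-positive group, 0.975 to 0.983 within the CCR2-negative group and 0.960 to 0.977 between them, over probe sets that are not independent replicates. CCR2-positive replicate 3 had the lowest correlations with the other pools. The stem cell identity markers had 12 of 14 genes measured, with a mean signal of 6.89 to 7.32 in CCR2-positive and 7.48 to 7.84 in CCR2-negative pools. All 12 had a negative difference, as did 9757 of all 22180 genes. At or above the median signal, where these 12 markers lie, 6217 of 11091 genes had a negative difference. Meis1, a transcription factor of stem cells, averaged 9.12 in CCR2-positive pools and 9.76 in CCR2-negative pools. Ccr2 itself averaged 6.70 in CCR2-positive pools and 5.91 in CCR2-negative pools (difference 0.79 ± 0.24, limma adjusted p = 0.274), and the pools overlapped.

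The sequences shown here are those just before the starts of Cxcl1, Cxcl2 and Cxcl3, neutrophil chemokine genes of 1 cluster on chromosome 5. They are shown because, among the ligands with a RefSeq promoter, only these matched 1 form of the NF-κB element in this window. Other forms of the element were not searched for. Among the 34 ligands, 23 had a promoter in the RefSeq table (26 promoters in all, assembly GRCm38.p6). The 250 bases before each start were searched on both strands for GGGA and TTTCC with 1 base of any kind between them, a form of the NF-κB element, and the match is in capitals. It was in 117 of all 32851 promoters (0.356%), and among the 23 ligands in Cxcl1, Cxcl2 and Cxcl3. The first count is of promoters, and the second is of genes with a match in any of their promoters, so their shares are not alike. Each line gives the 120 bases that end at the base before the start, 5′ to 3′ on the plus strand.
Cxcl1 (chr5:90891125-90891244): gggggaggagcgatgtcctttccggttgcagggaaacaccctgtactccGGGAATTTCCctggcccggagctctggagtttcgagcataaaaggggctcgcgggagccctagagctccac
Cxcl2 (chr5:90903779-90903898): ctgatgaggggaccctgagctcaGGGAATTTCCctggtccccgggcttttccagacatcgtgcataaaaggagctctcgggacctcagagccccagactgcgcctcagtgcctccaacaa
Cxcl3 (chr5:90785981-90786100): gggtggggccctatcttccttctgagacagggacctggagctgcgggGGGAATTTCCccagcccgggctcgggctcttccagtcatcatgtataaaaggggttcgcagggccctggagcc
The matched letters were the same in all 3, and they ended 61 bases before the start in Cxcl1, 87 in Cxcl2 and 63 in Cxcl3. A match is a description of the sequence and says nothing about binding in these cells.

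No chemokine ligand passed an adjusted p of 0.05, and neither did any other gene (0% of the genes tested). At an unadjusted p under 0.05 there were 5 ligands, or 14.7% of the 34, where 12.2% of all genes had such a p. Of these, 4 had higher values in CCR2-positive pools, namely Ccl6, Cxcl2, Cx3cl1 and Ccl25 (11.8% of the ligands, against 5.63% of all genes). The other 1, Ccl17, had lower values (2.94%, against 6.61%). Such shares depend on signal level, and those for genes below the median signal are given further down. The count of 5 was 3 without CCR2-positive replicate 1, 2 without CCR2-negative replicate 2 and 3 without CCR2-negative replicate 3. For 8 ligands the ranges of the groups lay apart. In 7 of them the CCR2-positive pools lay above (20.6%, against 10.8% of all genes), these being the 4 just named with Cxcl12, Cxcl13 and Ccl1, and in Ccl17 they lay below (2.94%, against 7.88%). For 33 of the 34 ligands the 95% interval of the difference stayed within 1 log2 unit of 0, that is, within a 2-fold change either way. The exception was Ccl3, whose interval ran from -0.49 to 1.13.

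**Figure D1:**
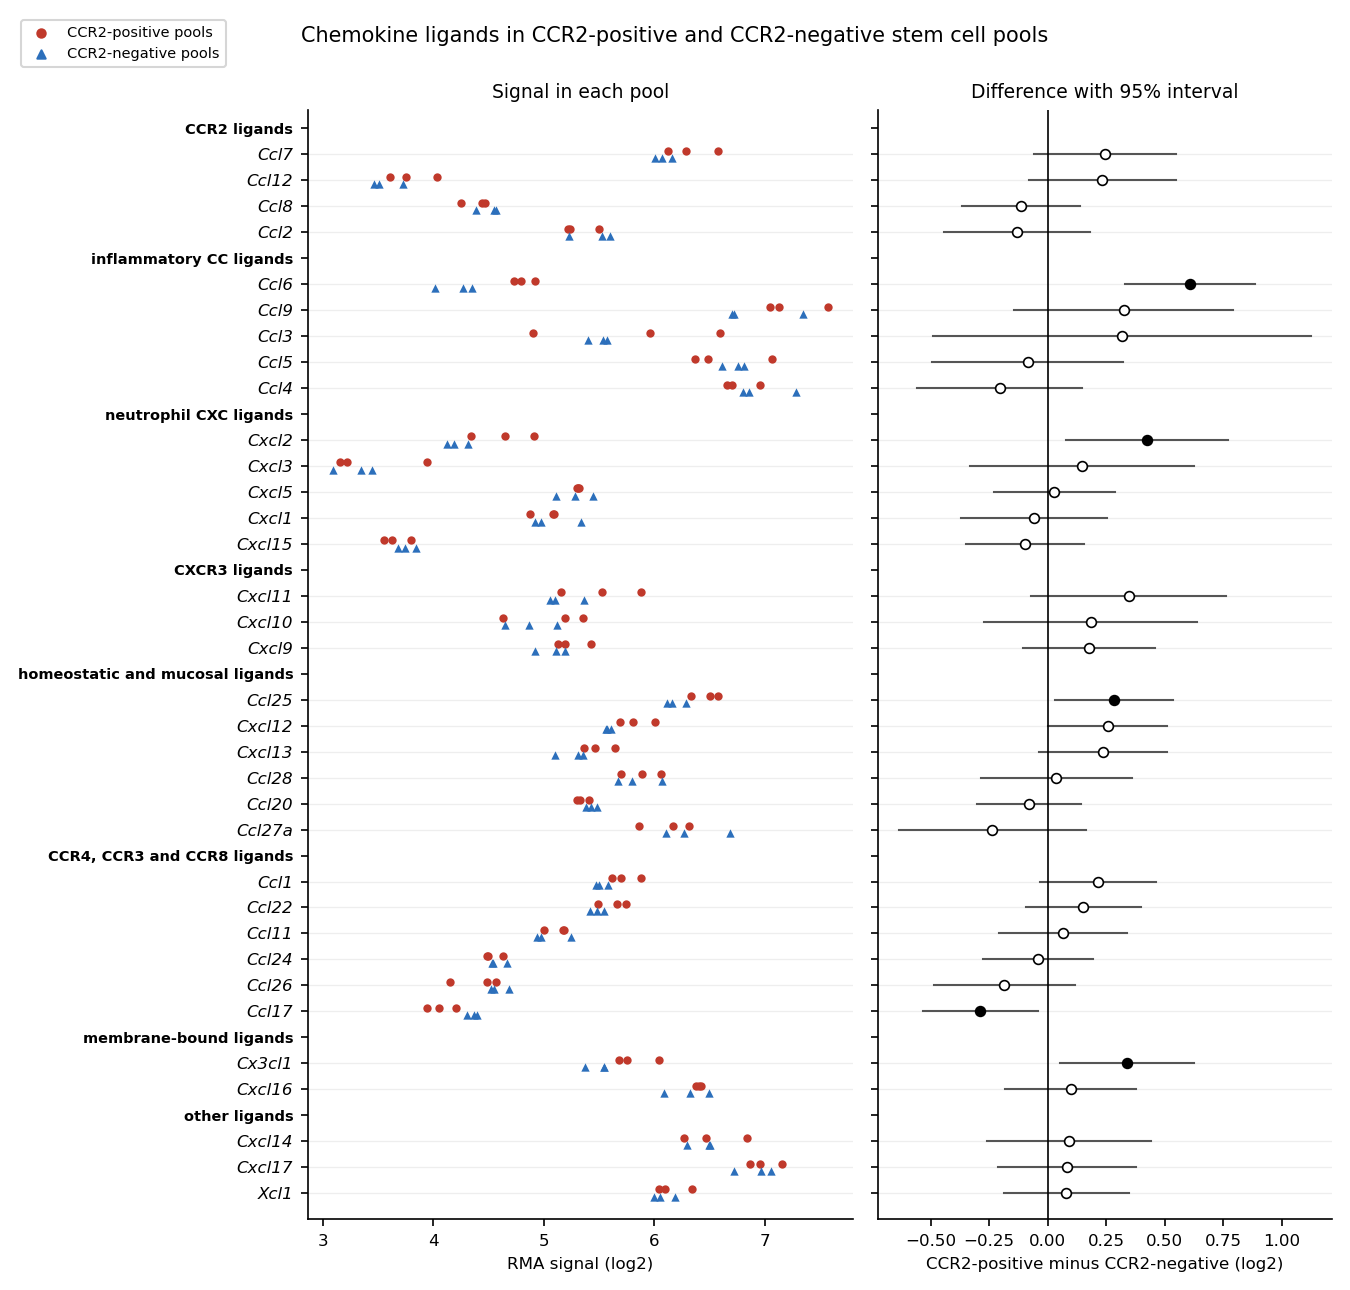
Left, RMA signal (log2) of each of the 34 chemokine ligands in each pool, CCR2-positive pools as red circles and CCR2-negative pools as blue triangles, grouped by receptor or role. Right, the difference (CCR2-positive minus CCR2-negative, log2) with its 95% limma interval, filled where the unadjusted p is under 0.05, which holds for Ccl6, Cxcl2, Ccl25, Ccl17 and Cx3cl1.

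As a family the ligands had slightly higher values in CCR2-positive pools. Their mean signal was 5.47, 5.45 and 5.45 in CCR2-positive pools 1 to 3 and 5.35, 5.33 and 5.39 in CCR2-negative pools 1 to 3. The CCR2-positive family means thus all lay above the CCR2-negative ones, by 0.101 on average. Of the members 23 had a positive and 11 a negative difference (67.6% positive, against 56% of all genes), with a median of 0.09 beside 0.03 for all genes. The family median was 0.06 without CCR2-positive replicate 3 and 0.16 without CCR2-negative replicate 3. Among the classes, 10 of the 19 CC ligands and 11 of the 13 CXC ligands had a positive difference, with medians of 0.04 and 0.15.

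The sign of the difference went with signal level across the whole array, and 23 of the 34 ligands had a mean signal below the median gene. Below the median signal, 68.1% of all genes had a positive difference, and so did 15 of the 23 ligands there (65.2%). The mean signal of those 23 ligands was higher in CCR2-positive pools by 0.118, and that of all genes below the median was higher by 0.060. At an unadjusted p under 0.05, 6.68% of those genes were higher in CCR2-positive pools and 1.92% lower. The same shares were 13% and 4.35% of the 23 ligands. The CCR2-positive pools all lay above in 14.2% of those genes and 26.1% of those ligands. They all lay below in 375 of the 11089 genes and 1 of the 23 ligands. At or above the median signal 43.9% of all genes had a positive difference, and 8 of the 11 ligands there did (72.7%). The part of this level-dependent shift in the family's values was not tested. The highest ligand signal was at percentile 74.7 of all genes.

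**Figure D2:**
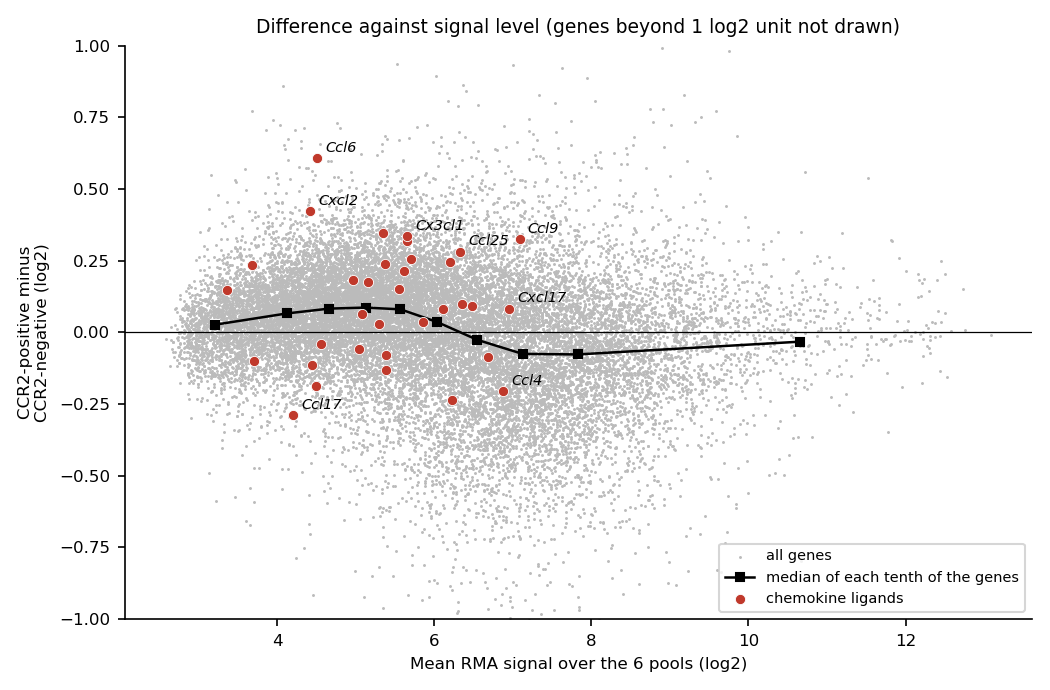
Difference (CCR2-positive minus CCR2-negative, log2) against the mean RMA signal over the 6 pools (log2) for all genes within 1 log2 unit of 0 (grey), with the median difference in 10 equal-sized groups of genes ordered by signal (black squares) and the chemokine ligands in red. The black line lies above 0 at low signals and below 0 at high ones, with group medians from -0.08 to 0.09, and most ligands sit where it is above 0.

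The ligands of CCR2 did not share a direction. Ccl2, which encodes the main CCR2 ligand, had 5.232, 5.502 and 5.218 in CCR2-positive pools, against 5.599, 5.523 and 5.225 in CCR2-negative pools. The pools overlapped, and the difference was -0.13 ± 0.14 (limma adjusted p = 0.725). Ccl7, which encodes a CC ligand that also binds CCR2, had 6.28, 6.12 and 6.57 in CCR2-positive pools and 6.07, 6.01 and 6.16 in CCR2-negative pools. Its difference was 0.24 ± 0.13 (adjusted p = 0.493), with CCR2-positive replicate 2 below CCR2-negative replicate 3. Ccl12, a mouse gene close to Ccl2, had 3.75, 3.60 and 4.03 in CCR2-positive pools and 3.51, 3.72 and 3.46 in CCR2-negative pools. These also overlapped, with a difference of 0.23 ± 0.14 (adjusted p = 0.528). Ccl8 is a CCR2 ligand in humans and is better known in mice as a ligand of CCR8. It had 4.47, 4.44 and 4.25 in CCR2-positive pools, against 4.56, 4.55 and 4.38 in CCR2-negative pools, a difference of -0.11 ± 0.11 (adjusted p = 0.707). The 95% intervals of these 4 differences lay between -0.44 and 0.55.

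Ccl6 had the largest difference of all the ligands. It encodes a CC chemokine of mouse myeloid cells and signals through CCR1. Its signal was 4.73, 4.79 and 4.92 in CCR2-positive pools, against 4.26, 4.01 and 4.35 in CCR2-negative pools. Every CCR2-positive pool was above every CCR2-negative pool, with a gap between the groups that was wider than the range within either. The difference of 0.61 ± 0.12 is a 1.52-fold higher signal, with a 95% interval of 0.33 to 0.88 on the log2 scale, an unadjusted p of 9.1e-04 and a limma adjusted p of 0.177. It lay between 0.51 and 0.68 as each pool was left out in turn. The signal itself was low, at percentile 21.8 of all genes, and no detection calls were given.

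Ccl9, which encodes another CCR1 ligand of myeloid cells and lies beside Ccl6 on chromosome 11, had the highest signal of the family. It had 7.13, 7.57 and 7.04 in CCR2-positive pools and 6.71, 7.35 and 6.72 in CCR2-negative pools. CCR2-negative replicate 2 was above CCR2-positive replicates 1 and 3, and the difference was 0.32 ± 0.20 (adjusted p = 0.554). Leaving out CCR2-positive replicate 2 gave 0.16, and leaving out CCR2-negative replicate 2 gave 0.54.

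Ccl3, known as an inhibitor of stem cell proliferation besides its part in inflammation, varied most between pools. It had 5.96, 6.60 and 4.90 in CCR2-positive pools, an SD of 0.86, and 5.40, 5.53 and 5.57 in CCR2-negative pools, an SD of 0.09. CCR2-positive replicate 2 was the highest and CCR2-positive replicate 3 the lowest of all 6 pools, so that the CCR2-negative pools lay between them. The difference of 0.32 ± 0.35 (adjusted p = 0.744) turned to -0.07 without CCR2-positive replicate 2 and was 0.78 without CCR2-positive replicate 3.

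Ccl4, the neighbour of Ccl3, encodes an inflammatory CC chemokine. Its values were 6.70, 6.96 and 6.66 in CCR2-positive pools, against 6.80, 7.28 and 6.85 in CCR2-negative pools, with overlap and a difference of -0.21 ± 0.15 (adjusted p = 0.621). Ccl5, a CC chemokine gene best known from T cells, had 6.37, 7.06 and 6.48 in CCR2-positive pools and 6.76, 6.61 and 6.81 in CCR2-negative pools. CCR2-positive replicate 2 was above and the other CCR2-positive pools were below all CCR2-negative pools (difference -0.09 ± 0.18, adjusted p = 0.869), and without CCR2-positive replicate 2 the difference was -0.30.

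Markers of mature myeloid cells leaned the same way as Ccl6. Of 15 measured monocyte and macrophage markers 13 had a positive difference (56% of all genes did), and 4 had an unadjusted p under 0.05 in that direction (26.7%, against 5.63% of all genes). Their mean signal was 5.91 to 6.15 in CCR2-positive pools and 5.68 to 5.83 in CCR2-negative pools. Of the 12 mature neutrophil markers all had a positive difference and 3 had such a p (25%, against the same 5.63%). Their means were 5.26 to 5.85 in CCR2-positive pools and 4.99 to 5.34 in CCR2-negative pools, which overlap. Most members of both lists lie below the median signal. There 68.1% of all genes had a positive difference, and 6.68% were higher at such a p. Both lists were highest in replicate 2 of either group, as were Ccl9 and Ccl4, of which Ccl4 had a negative difference (-0.21). Ccl6 did not follow these lists from pool to pool. It was highest in CCR2-positive replicate 3, where both lists had their lowest CCR2-positive mean, and lowest in CCR2-negative replicate 2. Lgals3, which encodes galectin-3, differed by 0.50 ± 0.11, and F13a1, a coagulation factor gene of monocytes, by 0.66 ± 0.18 (limma adjusted p = 0.183 and 0.235). Erythroid markers differed more, with all 10 measured members at a positive difference, a median of 0.73, and 8 at such a p (80%, against 5.63% of all genes). Their mean signal was 8.895 to 9.425 in CCR2-positive pools and 8.155 to 8.682 in CCR2-negative pools. The part of any of these cells in the values of the ligands was not tested.

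**Figure D3:**
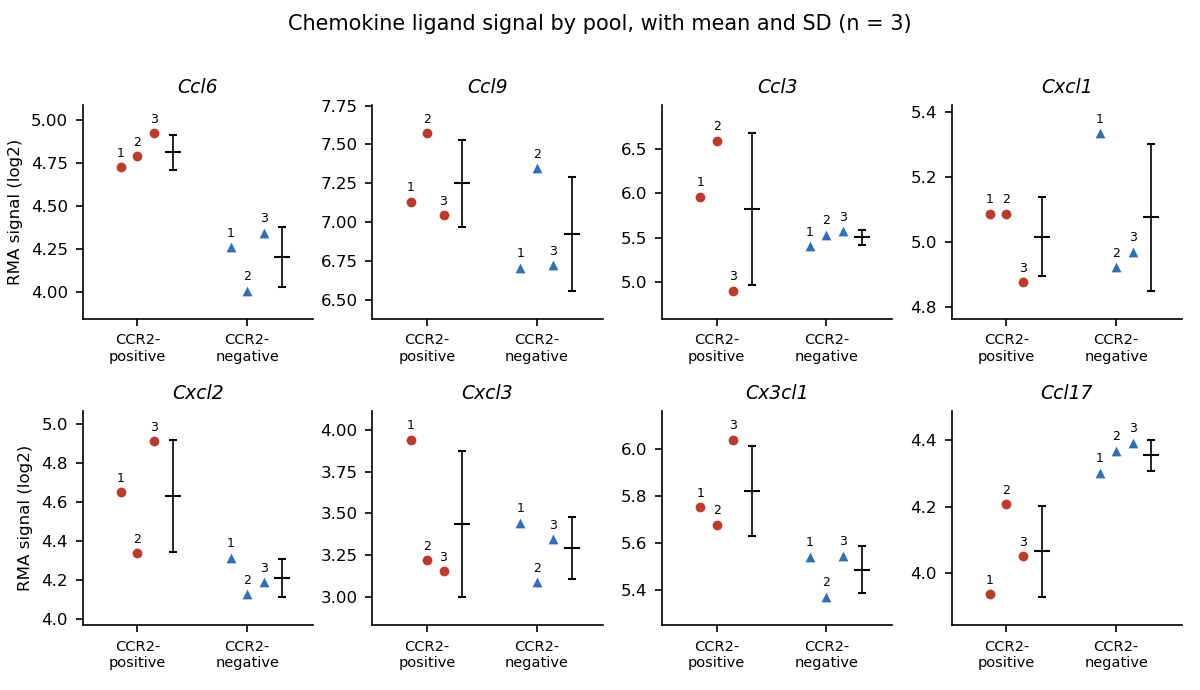
RMA signal (log2) of 8 chemokine ligands in each pool, numbered by replicate, with the group mean and SD (n = 3) in black; CCR2-positive pools are red circles and CCR2-negative pools blue triangles, and each panel has its own axis that does not start at 0. The pools of the groups are apart for Ccl6, Cxcl2, Cx3cl1 and Ccl17 and overlap for Ccl9, Ccl3, Cxcl1 and Cxcl3.

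Cxcl1, Cxcl2 and Cxcl3, whose promoters share the searched form of the NF-κB element, encode ligands of CXCR2, the receptor that draws neutrophils. Cxcl2 had 4.65, 4.34 and 4.91 in CCR2-positive pools, against 4.31, 4.13 and 4.19 in CCR2-negative pools. The groups did not overlap, although CCR2-positive replicate 2 was 0.02 above the nearest CCR2-negative pool. The difference of 0.42 ± 0.15 was a 1.34-fold higher signal (unadjusted p = 0.022, limma adjusted p = 0.324), and it was 0.28 without CCR2-positive replicate 3. Cxcl1 had 5.09, 5.09 and 4.88 in CCR2-positive pools and 5.33, 4.92 and 4.97 in CCR2-negative pools. It overlapped widely, with a difference of -0.06 ± 0.14 (adjusted p = 0.885). Cxcl3 had 3.94, 3.22 and 3.15 in CCR2-positive pools, against 3.44, 3.09 and 3.35 in CCR2-negative pools. Its highest pool was CCR2-positive replicate 1, and the difference of 0.15 ± 0.21 (adjusted p = 0.805) turned to -0.11 without that pool. Whether the differences of these 3 genes differ from each other was not tested. Cxcl5, another CXCR2 ligand, and Cxcl15, a chemokine gene of the lung, differed by 0.03 ± 0.11 and -0.10 ± 0.11.

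Inflammatory cytokines and NF-κB feedback genes had no member with higher values at an unadjusted p under 0.05 and 3 of 12 with lower ones (25%, against 6.61% of all genes). These were Il18, which encodes an inflammasome-processed cytokine (-1.38 ± 0.31), Ier3, an early response gene (-0.72 ± 0.19), and Icam1, an adhesion molecule gene (-0.36 ± 0.16), with limma adjusted p-values of 0.183, 0.235 and 0.405. Of 15 immediate early and handling stress genes 1 had higher values by the same count (6.67%, near the 5.63% of all genes), and none had lower ones (against 6.61%). The higher one was Nr4a1, which encodes a nuclear receptor (0.43 ± 0.13, limma adjusted p = 0.279).

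The CXCR3 ligands Cxcl9, Cxcl10 and Cxcl11, which interferon induces and which draw activated T cells, all had positive differences that were within 2 standard errors of 0. Cxcl11 averaged 5.52 ± 0.36 in CCR2-positive and 5.17 ± 0.17 in CCR2-negative pools (SD, n = 3 each), a difference of 0.34 ± 0.18 with an adjusted p of 0.480. Cxcl10 differed by 0.18 ± 0.20 and Cxcl9 by 0.18 ± 0.12. In all 3 the pools overlapped. Other interferon-induced genes leaned the opposite way, with 11 of 15 measured members (18 listed) at a negative difference. Of these 7 had an unadjusted p under 0.05 (46.7%, against 6.61% of all genes), and none passed over all genes. Most of the list lies at or above the median signal, where 11.3% of genes were lower at such a p and 43.9% had a positive difference. Rtp4, a receptor transporter gene, differed by -0.94 ± 0.22 and Igtp, an interferon-induced GTPase gene, by -0.60 ± 0.14 (limma adjusted p = 0.188 and 0.191).

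Among ligands of tissue homeostasis, Ccl25 and Cxcl12 had separate pools. Ccl25, which brings progenitors to the thymus through CCR9, had 6.33, 6.57 and 6.50 in CCR2-positive pools and 6.16, 6.11 and 6.29 in CCR2-negative pools. The lowest CCR2-positive pool was 0.04 above the highest CCR2-negative pool. The difference was 0.28 ± 0.11, a 1.22-fold higher signal (unadjusted p = 0.032, limma adjusted p = 0.363). Cxcl12, the ligand of CXCR4, had 6.01, 5.81 and 5.69 in CCR2-positive pools, against 5.56, 5.57 and 5.61 in CCR2-negative pools, a difference of 0.26 ± 0.11 (unadjusted p = 0.051, adjusted p = 0.409). The CCR2-negative pools lay close together and below all CCR2-positive pools. Marrow stromal markers, from the cells best known to make Cxcl12, had means of 4.91 to 5.04 in CCR2-positive pools and 4.96 to 5.00 in CCR2-negative pools, with none of 12 higher at an unadjusted p under 0.05 (against 5.63% of all genes) and 1 lower (8.33%, against 6.61%). The lower one was Col1a2, a collagen gene (-0.45 ± 0.11, limma adjusted p = 0.188). Lepr, a receptor gene that marks these stromal cells and is named here after its value was seen, averaged 3.70 in CCR2-positive pools and 3.77 in CCR2-negative pools. It had the lowest signal of its list. The part of stromal cells in the Cxcl12 values was not tested.

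Cxcl13, which draws B cells to follicles, also had separate pools, at 5.47, 5.36 and 5.64 in CCR2-positive and 5.30, 5.10 and 5.35 in CCR2-negative pools (0.24 ± 0.12, adjusted p = 0.461). Its nearest pools were 0.01 apart. Ccl28, a mucosal chemokine gene, differed by 0.04 ± 0.14 and Ccl20, the CCR6 ligand gene, by -0.08 ± 0.10. Ccl27a, a skin chemokine gene, had 6.31, 5.86 and 6.17 in CCR2-positive pools, against 6.10, 6.27 and 6.68 in CCR2-negative pools (-0.24 ± 0.18, adjusted p = 0.619). Its other probe set of its own gave -0.19 ± 0.16. The mouse genome holds near-identical copies of this gene, so its reads by these probes are uncertain.

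Ccl17 and Cx3cl1 are direct neighbours on chromosome 8 and had opposite differences. Ccl17, a CCR4 ligand gene known from dendritic cells, had 3.94, 4.21 and 4.05 in CCR2-positive pools, against 4.30, 4.37 and 4.39 in CCR2-negative pools. All CCR2-positive pools were below all CCR2-negative ones, with a difference of -0.29 ± 0.11 (1.22-fold lower, unadjusted p = 0.027, limma adjusted p = 0.345). Its signal was at percentile 16 of all genes. Cx3cl1, which encodes fractalkine, a membrane-bound ligand that holds CX3CR1-bearing cells, had 5.75, 5.68 and 6.04 in CCR2-positive pools, against 5.54, 5.37 and 5.54 in CCR2-negative pools. Here all CCR2-positive pools were above, with a difference of 0.34 ± 0.13 (1.26-fold higher, unadjusted p = 0.026, adjusted p = 0.341). Ccl22, the next gene on the other side of Cx3cl1 and the other CCR4 ligand gene of mice, differed by 0.15 ± 0.11 with overlapping pools. Dendritic cell markers had means of 6.15 to 6.19 in CCR2-positive pools and 6.17 to 6.26 in CCR2-negative pools. No member of that list had an unadjusted p under 0.05.

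The remaining ligands differed by less than 2 standard errors. Ccl1, a CCR8 ligand gene of T cells, had pools that did not overlap but lay 0.04 apart (0.21 ± 0.11, adjusted p = 0.461). The eotaxin genes Ccl11 and Ccl24, which draw eosinophils, differed by 0.07 ± 0.12 and -0.04 ± 0.10, and Ccl26, an eotaxin in humans, by -0.19 ± 0.13. Cxcl16, the other membrane-bound ligand, had 6.42, 6.37 and 6.40 in CCR2-positive pools and 6.09, 6.32 and 6.49 in CCR2-negative pools. Its CCR2-positive pools lay within the range of the CCR2-negative ones (0.10 ± 0.12, adjusted p = 0.776). Cxcl17, a mucosal chemokine gene, had 6.87, 6.96 and 7.15 in CCR2-positive pools and 6.72, 6.96 and 7.05 in CCR2-negative pools (0.08 ± 0.13, adjusted p = 0.825). Cxcl14, an epithelial chemokine gene, had 6.27, 6.47 and 6.84 in CCR2-positive pools, against 6.50, 6.30 and 6.50 in CCR2-negative pools (0.09 ± 0.15, adjusted p = 0.840). Xcl1, the lymphotactin gene of T and NK cells, differed by 0.08 ± 0.12. T and NK cell markers had means of 5.15 to 5.32 in CCR2-positive pools and 5.12 to 5.15 in CCR2-negative pools, which overlap.

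In RefSeq, 12 of the ligands lie on chromosome 11 and 11 on chromosome 5, with 8 and 7 of them at a positive difference. Over all 34 ligands the share was 67.6%, and over all genes it was 56%. Of the 15 pairs of ligands that are next to each other among protein-coding genes, 7 had differences of the same sign. Neighbouring genes outside the family were not counted for comparison. Ccl9, Ccl6 and Ccl3, which follow each other on chromosome 11, were all positive, whereas Ccl5 before them and Ccl4 after them were negative.

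Other chemokine-family genes outside the symbol rule had no member at an unadjusted p under 0.05 among the 4 measured. Pf4, the platelet factor gene that encodes CXCL4, had 10.71, 10.23 and 10.70 in CCR2-positive pools and 10.42, 10.10 and 10.07 in CCR2-negative pools (0.35 ± 0.16, adjusted p = 0.426), with overlap. Ppbp, the platelet gene that encodes CXCL7, had 6.19, 6.05 and 7.51 in CCR2-positive pools, against 6.14, 5.57 and 5.63 in CCR2-negative pools (0.80 ± 0.36, adjusted p = 0.411). CCR2-positive replicate 3 stood well above the rest for Ppbp. The megakaryocyte and platelet markers other than Pf4 and Ppbp had a mean of 7.35 over 8 genes in that pool and of 7.27 to 7.69 in the other pools. Cklf, a chemokine-like factor gene, and Mif, a cytokine gene whose product binds CXCR2 and CXCR4, differed by -0.19 ± 0.19 and -0.03 ± 0.10.

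The receptors for these ligands had 23 of 24 genes measured. At an unadjusted p under 0.05, 3 had higher and 1 lower values in CCR2-positive pools (13% and 4.35%, against 5.63% and 6.61% of all genes), and none passed over all genes. Besides Ccr2, the higher ones were Cxcr3, the receptor of CXCL9 to CXCL11 (0.40 ± 0.11), and Ccr6, that of CCL20 (0.37 ± 0.10), with limma adjusted p-values of 0.243 and 0.235. Ccrl2, an atypical receptor gene, was the lower one (-0.46 ± 0.16, adjusted p = 0.306). Cxcr4 had 8.96, 8.84 and 8.81 in CCR2-positive pools, against 9.23, 9.06 and 8.99 in CCR2-negative pools. These did not overlap (-0.22 ± 0.11, adjusted p = 0.446).

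Receptor-proximal signalling genes, which include both genes that carry the signal of chemokine receptors and genes that damp it, were examined next. They were lower in CCR2-positive pools in 14 of 15 measured cases, by a median of -0.26, with genes of both kinds among the lower ones. At an unadjusted p under 0.05, 8 were lower and 0 higher (53.3% lower, against 6.61% of all genes and 11.3% of the genes at or above the median signal), and none passed over all genes. Their mean signal was 7.997 to 8.170 in CCR2-positive pools and 8.364 to 8.543 in CCR2-negative pools. Elmo1, which with DOCK2 activates the small GTPase Rac, had 8.45, 7.96 and 8.09 in CCR2-positive pools, against 9.17, 8.82 and 8.82 in CCR2-negative pools. The pools were well apart, with a difference of -0.77 ± 0.16 (limma adjusted p = 0.177). Dock2, the Rac activator that leukocytes need for migration, differed by -0.52 ± 0.14. Pik3cg, the lipid kinase subunit that G proteins switch on, differed by -0.77 ± 0.20, and Rgs2, which turns G proteins off, by -0.66 ± 0.17 (adjusted p = 0.228, 0.222 and 0.221). Arrb1, a receptor-desensitising arrestin gene named here after its value was seen, was the single one with a positive difference (0.18 ± 0.16). The list was chosen with earlier results of these data known. Stem cell identity markers were also lower in CCR2-positive than in CCR2-negative pools, but the lists differed within the CCR2-positive group. CCR2-positive replicate 3 had the lowest signalling mean of that group (7.997) and its highest stem cell marker mean (7.315). The part of stem cells in the signalling values was not tested.

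**Figure D4:**
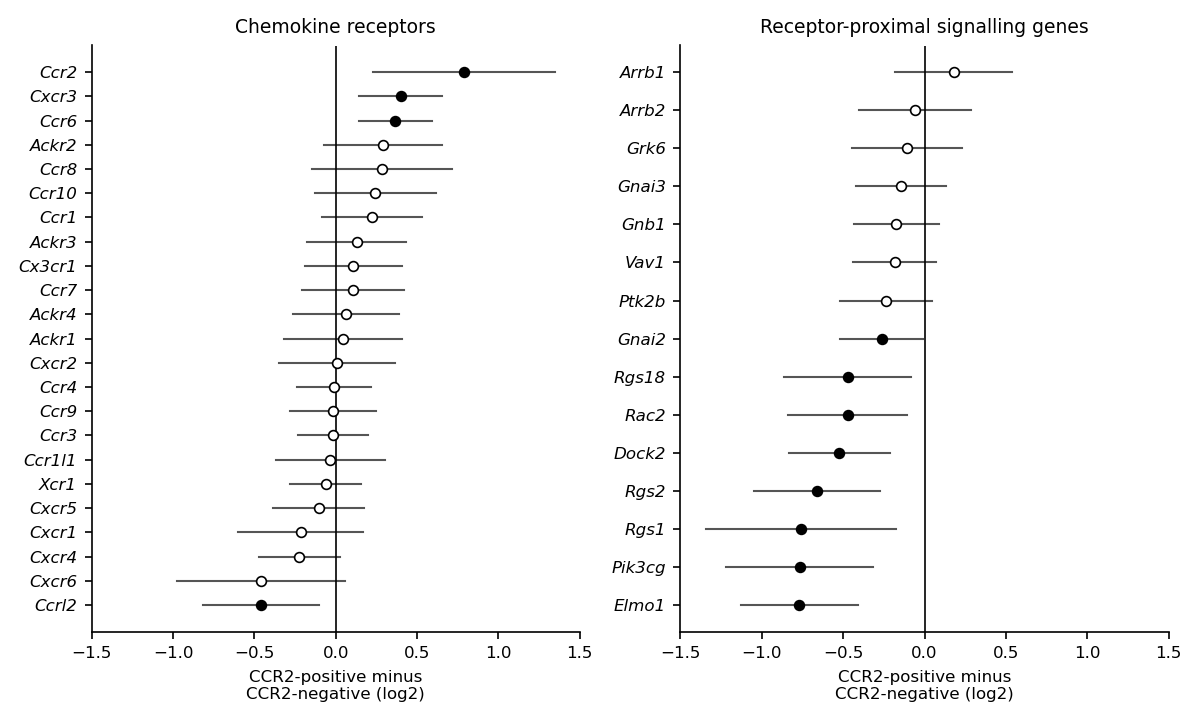
Difference (CCR2-positive minus CCR2-negative, log2) with its 95% limma interval for 23 chemokine receptor genes (left) and 15 receptor-proximal signalling genes (right), filled where the unadjusted p is under 0.05. Receptors lie on both sides of 0, with Ccr2 the highest at 0.79, and 14 of the 15 signalling genes lie below it.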

How the data were processed

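The deposited table holds 41345 probe sets on 6 arrays, and per the labels' protocols 5 ng of total RNA per pool was amplified with a whole-transcriptome kit. The authors' values are log2 signals from RMA, per the submitters' processing notes, and they ran from 2.39 to 13.3. RMA corrects background and equalises the arrays, so values are relative to the other genes of an array. The sources used here give no version or settings for RMA, no build and no detection calls. The number of arrays limits the precision. The platform annotation gave 1 gene to 23521 probe sets, several to 1814 and none to 16010, and all 34 ligands matched RefSeq by gene number. Where a gene had several probe sets, the one with the highest mean was used. The fit used limma 3.58.1 in R 4.3.3 (lmFit, eBayes, group only), and figures used Python 3.11.15. The fit was tested on simulated data.

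The members and all lists were chosen with earlier results of these data known. Per-pool values are given for the 8 ligands with the highest mean, those at an unadjusted p under 0.05, the CCR2 ligands and some neighbours. They are also given for Cxcl12 and Cxcl13, which meet none of these criteria and whose pools lay apart. Any ligand or receptor could be named, and up to 4 members of other lists by smallest p. Lepr and Arrb1 are exceptions to this rule, named after their values were seen. Probe sets shared by several genes (Ccl19, Ccl21 and Ccl27 copies) were left out of the fit. With 3 pools against 3, an exact permutation test of a single value cannot go below p = 0.1. Alternatives were dropping each pool in turn, 2 filters on dim genes, array weights, a block for replicate number, averaging probe sets within genes, trend and robust variance, centring on array medians and repeated quantile normalization.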

Additional observations from a re-analysis of the deposited data

How the results depend on the processing

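No gene passed an adjusted p of 0.05 under any setting with all 6 pools, and with 1 pool left out the count was 0 to 2. The 2 were Mcpt8 (2.70) and Gca (-1.55), both without CCR2-positive replicate 1, and no ligand passed under any setting. Of the ligands, 5 had an unadjusted p under 0.05 with all genes, 2 of the 25 left after dropping genes under the 25th percentile of signal, 0 of the 11 left above the median signal, where fewer ligands were tested, and 2 to 7 with 1 pool left out. Among those 11, Ccl25 had such a p with all genes and lost it under the filter at the median signal. Their median difference was 0.0941, became 0.131 after repeated quantile normalization, and ran from 0.0612 to 0.157 with 1 pool left out; the cause was not tested. Whether the replicate numbers pair the pools cannot be told from the values. Deviations of pools from their group means correlated at 0.03 to 0.09 for same-numbered pools and at -0.10 to 0.07 for the others. With the replicate number as a block 7 ligands had an unadjusted p under 0.05, 0 genes passed and the smallest limma adjusted p was 0.0618. Of 444 ligand differences under these settings 429 kept their direction, and 23 of the 34 ligands kept it in all. The difference of Cxcl5 turned to -0.0115 after repeated quantile normalization and that of Cxcl14 to -0.0442 with array weights. With 1 pool left out, 11 ligands changed sign: Ccl3 (-0.0701 to 0.778), Ccl5 (-0.299 to 0.0481), Ccl24 (-0.0893 to 0.0037), Ccl28 (-0.0512 to 0.149), Cxcl1 (-0.136 to 0.0701), Cxcl3 (-0.106 to 0.289), Cxcl5 (-0.0556 to 0.112), Cxcl14 (-0.0663 to 0.219), Cxcl16 (-0.009 to 0.195), Cxcl17 (-0.0147 to 0.153) and Xcl1 (-0.0093 to 0.136). Ccl6 kept an adjusted p of 0.118 to 0.474 over all settings that held it. The filters on dim genes left 9 and 23 of the ligands out, among them Ccl6, Cxcl2 and Ccl17.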

Other observations

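Ccl19, Ccl21 and Ccl27 genes exist in near-identical copies on the mouse genome, and 33 further probe sets are annotated to several of these copies at once. They entered no comparison and are given as values. For the 11 probe sets of the Ccl27 copies the CCR2-positive minus CCR2-negative value was negative in all, from -0.43 to -0.10 with a median of -0.24. Both probe sets annotated to Ccl27a alone were negative too. The brighter of them, used in the fit, had the same group means (6.11 and 6.35) as some of the shared probe sets. It is therefore not a separate reading from them. For Ccl21, a homing signal of T cells and dendritic cells, 6 of 9 were positive (-0.03 to 0.22). For Ccl19, a ligand of the same receptor, 8 of 13 were positive (-0.43 to 0.18). Probe sets of one family read the same transcripts and are not separate measurements.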
